A study of Macaca mulatta with 19 samples.

Results

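PGR, RUNX1, RUNX2, CEBPA, CEBPB, NRIP1, CITED4 and HIF1A encode transcription factors and coregulators that the surge of luteinizing hormone (LH) induces in granulosa cells before ovulation. They were taken by symbol from a table of raw read counts, in which each matched 1 row, so that 8 of 32386 gene rows are described here. The rule reads symbols and no measured value, though the 8 were picked with earlier results of these data known, and all 8 passed the filter on low counts. The level of these genes did not differ past the threshold between any treatment groups or between any classes of oocyte. Within the groups, 84.3% of all tested genes varied less than CITED4, 79.5% less than CEBPA, 67.7% less than PGR and 57.9% less than RUNX2. These genes were also above the median gene without the library that stood apart, a mark that as many genes exceed as not. No library from before the LH surge is analysed here, so the induction itself was not measured.

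In the preovulatory follicle, LH acts on granulosa cells through cyclic AMP and through ligands of the epidermal growth factor receptor, and it switches on regulators that carry the cells through follicle rupture, release of the oocyte and the change to luteal cells. PGR is the nuclear progesterone receptor and is needed for follicle rupture in mice. RUNX1 and RUNX2 are runt-domain factors that bind DNA together with CBFB. CEBPA and CEBPB are leucine-zipper factors, and mice that lack both in granulosa cells neither ovulate nor form corpora lutea. NRIP1 is a corepressor of nuclear receptors whose loss blocks oocyte release in mice, and CITED4 is a coactivator that binds EP300 and CREBBP. HIF1A is the oxygen-sensitive subunit that pairs with ARNT and drives genes of glycolysis and vessel growth.

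RNA was sequenced from luteinized granulosa cells of rhesus macaques, 1 library per animal and 19 in all, aspirated from the periovulatory follicle that each female had selected naturally in a controlled ovulation cycle. From around menarche the animals carried implants with testosterone (T, which raised the level 4 to 5 fold above that with cholesterol) or with cholesterol (C), and ate a Western-style diet (WSD) or standard chow for about 3.5 years. The groups were WSD+T (6 libraries), WSD+C (5), Chow+T (4) and the control Chow+C (4). The oocyte of the same follicle was degenerating in 6 libraries, at metaphase II (MII) in 4, at metaphase I (MI) in 8 and at the germinal vesicle stage (GV) in 1. WSD+T held 3 degenerating, 1 MII and 2 MI, WSD+C 2 degenerating and 3 MI, Chow+T 1 degenerating, 2 MII and 1 GV, and Chow+C 1 MII and 3 MI, so that treatment and oocyte class overlap only in part. Of the 10 animals enrolled per treatment, 7 to 10 entered such cycles. The labels name no sort of the aspirated cells, and a library is written below as its group and replicate number.

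Gene counts ran from 28832132 to 56385679 per library, and the lowest count of any of the 8 genes was 83 reads (CITED4 in WSD+C 4), so that differences between animals and not counting set the errors. Of 11 granulosa markers, 9 were found by symbol, and all 9 reached 1 CPM (the read count scaled to the size of the library, with TMM factors) in every library. Their summed level was 8501 to 13840 CPM in WSD+T, 2392 to 15880 in WSD+C, 7335 to 17000 in Chow+T and 8152 to 14540 in Chow+C. Of 12 leukocyte markers 11 were found, RAC2 was listed at 0 in every library, and the sum ran from 40.3 to 1940 CPM in WSD+T, 25.9 to 2348 in WSD+C, 18.95 to 142 in Chow+T and 29.6 to 83.8 in Chow+C. WSD+C 4, from a follicle with a degenerating oocyte, stood apart. Its granulosa score, the mean log2 CPM of the markers, was 6.38, against 7.66 to 9.28 in the other libraries. Its erythroid score was 8.72, against -2.82 to 2.60 in the others, and its smooth muscle score 5.92, against 0.01 to 2.34. Its leukocyte score was 7.43, and WSD+T 6, also with a degenerating oocyte, was at 7.22, where the other 17 libraries lay at 4.17 or below. Among the scores named here WSD+T 6 stood apart only in this one. Macrophage markers summed to 12.64 to 2860 CPM in WSD+T, 11.55 to 368 in WSD+C, 15.77 to 158 in Chow+T and 14.82 to 22.99 in Chow+C. In WSD+C 4 the lowest level of all libraries was found for PGR, RUNX1, CEBPA, CEBPB, CITED4 and HIF1A, which is 6 of the 8 genes. These are bulk libraries, in which fewer granulosa cells and less RNA of a gene per granulosa cell cannot be told apart.

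Across the treatment groups, 0 of the 8 genes passed edgeR's quasi-likelihood test (p-values adjusted by Benjamini-Hochberg across every tested gene) in any of 5 comparisons between pairs of groups, in both main effects or in the testosterone by diet interaction. The share of all 15019 tested genes that passed was 0% in each of them. At an unadjusted p under 0.05 there were also 0 of the 8, where the share of all genes was 7.18% for Chow+T against Chow+C, 5.08% for WSD+C against Chow+C, 6.75% for WSD+T against Chow+C, 3.86% for WSD+T against WSD+C and 4.97% for WSD+T against Chow+T. That share was 6.31% for testosterone over both diets, 6.87% for the diet over both implants and 4.52% for the interaction. DESeq2 and limma-voom also called 0 of the 8. For none of the 8 did the libraries of 2 compared groups separate completely, where 2.66%, 0.553%, 0.739%, 0.0732% and 1.17% of all genes did so in those pairs of groups, in the order above. The 3 comparisons with Chow+C share its 4 libraries and are therefore not independent of each other.

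**Figure D1:**
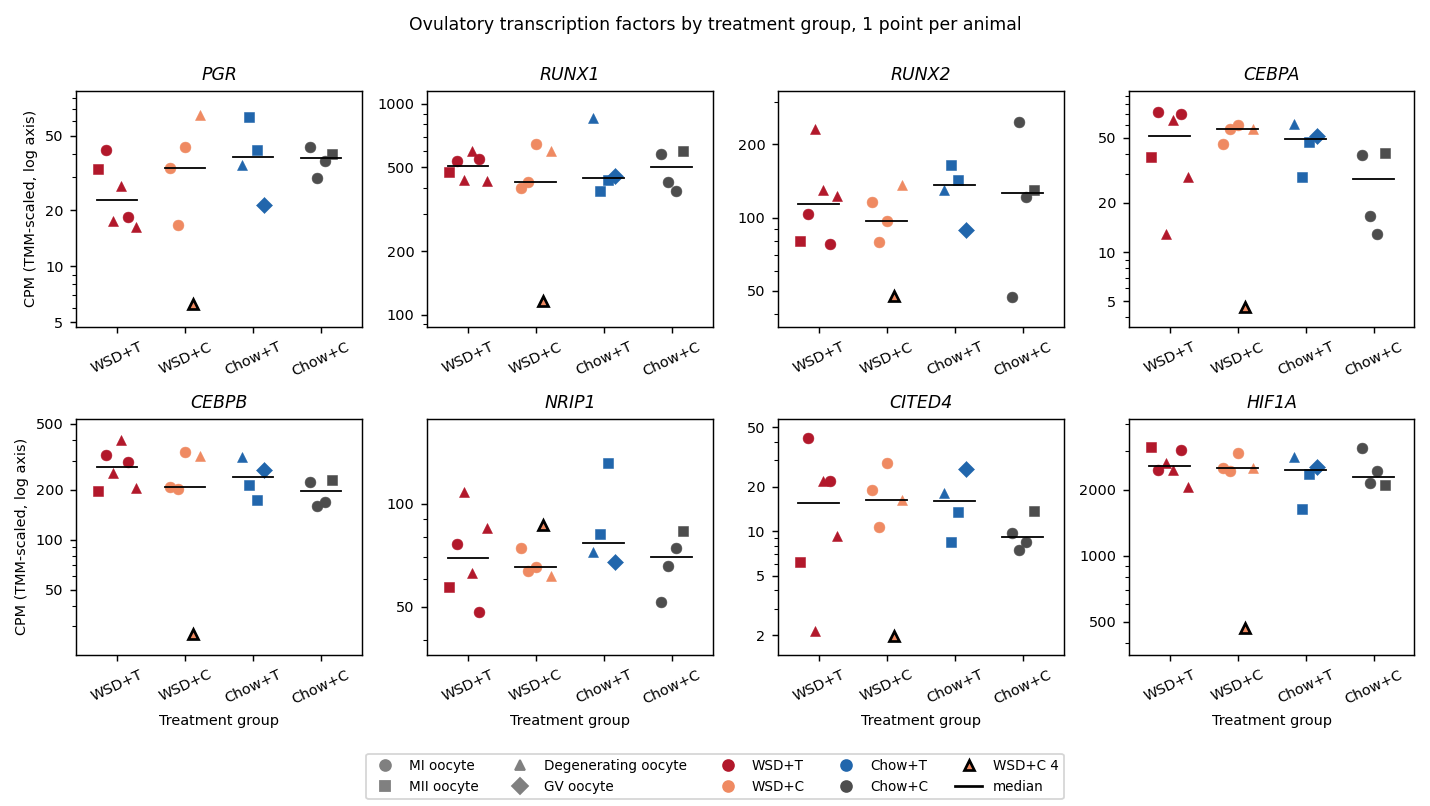
Level of the 8 genes in each library (TMM-scaled CPM, log axis) by treatment group; 1 point is 1 animal, the shape gives the oocyte class, the line is the group's median and a black outline marks WSD+C 4. The groups overlap for every gene, and WSD+C 4 lies lowest for 6 of the 8.

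PGR (ENSMMUG00000011846) was lower on average under the diet, most so with testosterone, but within the spread between animals. It had 16.2, 22.7 and 42.1 CPM as the lowest, median and highest of the 6 WSD+T libraries. WSD+C 1 to 5 had 33.8, 16.7, 43.5, 6.30 and 64.8 CPM, Chow+T 1 to 4 had 35.0, 63.5, 41.9 and 21.3 CPM, and Chow+C 1 to 4 had 43.5, 29.7, 36.5 and 39.8 CPM. Of the WSD+T libraries, 4 of 6 lay below the lowest Chow+C library, while WSD+C held both the highest and the lowest of all 19. The means were 25.8 ± 10.4 CPM in WSD+T (SD, n = 6), 33.0 ± 22.9 in WSD+C (n = 5), 40.4 ± 17.6 in Chow+T (n = 4) and 37.4 ± 5.87 in Chow+C (n = 4), and no neighbours in the order of the means differed past the threshold (adjusted p of 0.999, 0.992 and 0.974 by edgeR, from the lowest pair up). For WSD+T the fitted log2 fold change was -0.54 against Chow+C (SE 0.46, 95% confidence interval (CI) -1.50 to 0.42, adjusted p = 0.782), and -0.65 against Chow+T (SE 0.46, CI -1.61 to 0.31, adjusted p = 0.877). Against WSD+C it was -0.36, which was -0.62 without WSD+C 4, the lowest library, and 0.04 without WSD+C 5, the highest library.

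Genes linked to PGR in granulosa cells were followed beside the receptor, 19 of 21 listed being tested. With WSD+T against Chow+C, 15 of 19 had a positive log2 fold change with a median of 0.51, where 49.9% of all genes were positive with a median of -0.001. The median of the list was 0.22 for WSD+C and 0.08 for Chow+T against Chow+C. Of the 19, 0 passed the threshold in WSD+T against Chow+C and 2 had an unadjusted p under 0.05, SERPINA1 (1.87) and the lysosomal protease CTSL (0.77), where 6.75% of all genes did. EDN2, endothelin 2, which contracts the follicle wall at rupture in rodents, averaged 52.5 ± 80.5 CPM in WSD+T (0.33 to 161) and 0.97 ± 0.71 CPM in WSD+C (0.37 to 1.84), which gave 5.75 on the log2 scale (SE 1.90, adjusted p = 0.999). Its SD in WSD+T was larger than its mean. SERPINA1, a protease inhibitor, averaged 15.9 ± 17.6 CPM in WSD+T, against 2.70 ± 1.52 CPM in Chow+T (2.55, SE 0.89, adjusted p = 0.862), and the log2 fold change was 1.76 without WSD+T 6. SERPINA1 rose with the leukocyte score (slope 0.31, adjusted p = 0.04).

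RUNX1 (ENSMMUG00000001649) was close to level across the groups. Its lowest, median and highest in WSD+T were 431, 507 and 597 CPM. The libraries WSD+C 1 to 5 had 401, 428, 646, 117 and 601 CPM, Chow+T 1 to 4 had 857, 384, 434 and 457 CPM, and Chow+C 1 to 4 had 577, 427, 386 and 601 CPM. Chow+T 1 was the highest of all libraries and WSD+C 4 the lowest, and the rest of all groups lay within 384 to 646 CPM. In the 5 comparisons the log2 fold changes ran from -0.18 (WSD+C against Chow+C) to 0.20 (WSD+T against WSD+C), and for WSD+T against Chow+C the value was 0.02 (SE 0.34, CI -0.71 to 0.74, adjusted p = 0.991). The means were 504 ± 66.8 CPM in WSD+T, 439 ± 209 in WSD+C, 533 ± 218 in Chow+T and 498 ± 107 in Chow+C, and no neighbours in their order differed past the threshold.

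RUNX2 (ENSMMUG00000019819), best known as the bone-forming factor and also induced in follicles, varied most among the controls. WSD+T had 77.9, 113 and 232 CPM as lowest, median and highest. Levels in WSD+C 1 to 5 were 116, 79.4, 96.4, 47.4 and 137 CPM, Chow+T 1 to 4 had 130, 164, 142 and 88.5 CPM, and Chow+C 1 to 4 had 47.3, 246, 122 and 130 CPM. Chow+C thus held both the lowest and the highest library of all 19. The means were 124 ± 56.8 CPM in WSD+T, 95.2 ± 34.3 in WSD+C, 131 ± 31.9 in Chow+T and 137 ± 82.2 in Chow+C, and no neighbours in their order differed past the threshold. The log2 fold change of WSD+C against Chow+C was -0.52 (SE 0.40, CI -1.37 to 0.33, adjusted p = 0.873). It was -0.07 without Chow+C 2, the highest library, and -0.80 without Chow+C 1, the lowest.

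Of 16 genes linked to RUNX factors in granulosa cells, 12 were tested and 0 passed in any of the 11 comparisons of groups or classes. Those of the smallest p between treatment groups were ABCB1, a drug-efflux pump, at 0.32 ± 0.24 CPM in WSD+T and 1.13 ± 1.08 CPM in WSD+C (log2 fold change -1.79, adjusted p = 0.999, and -1.05 without WSD+C 4), and the cell-cycle regulator RGCC, at 40.4 ± 21.7 CPM in WSD+T, against 72.3 ± 28.2 CPM in Chow+T (-0.84, adjusted p = 0.862). HAPLN1, which links hyaluronan in the matrix of the cumulus, had a median of 0.91 CPM with degenerating oocytes and 2.85 CPM with MI oocytes (-2.33, adjusted p = 0.185), and the log2 fold change was -1.24 without WSD+T 2, where the gene was highest.

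CEBPA (ENSMMUG00000006124) had a higher median in each treated group than in controls. WSD+T had 12.9, 51.3 and 72.0 CPM as lowest, median and highest. In WSD+C 1 to 5 it had 45.9, 56.8, 60.3, 4.65 and 56.6 CPM, Chow+T 1 to 4 had 60.9, 29.0, 47.2 and 51.4 CPM, and Chow+C 1 to 4 had 39.1, 16.6, 12.8 and 40.5 CPM. Above the highest Chow+C library lay 3 of 6 WSD+T, 4 of 5 WSD+C and 3 of 4 Chow+T libraries, and the lowest library of WSD+T was at the level of the lowest control. Against Chow+C the log2 fold change was 0.81 for WSD+T (SE 0.57, CI -0.39 to 2.00, adjusted p = 0.74), 0.72 for WSD+C (SE 0.58, CI -0.51 to 1.95, adjusted p = 0.883) and 0.79 for Chow+T (SE 0.61, CI -0.50 to 2.07, adjusted p = 0.789). The means were 47.8 ± 24.6 CPM in WSD+T, 44.8 ± 23.1 in WSD+C, 47.1 ± 13.4 in Chow+T and 27.3 ± 14.6 in Chow+C. Without WSD+C 4 the other 4 WSD+C libraries all lay above Chow+C, with a log2 fold change of 1.01 and an adjusted p = 0.752. Among MI libraries alone, the 3 of WSD+C (45.9 to 60.3 CPM) all lay above the 3 of Chow+C (12.8 to 39.1 CPM), with a log2 fold change of 1.23 (SE 0.43) and an adjusted p = 0.652. This separation of the MI libraries was found for 2 of the 8 factors, CEBPA and CITED4, and for 13.7% of all genes.

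CEBPB (ENSMMUG00000045219), which LH induces in rodent granulosa cells, had 197, 274 and 399 CPM as the lowest, median and highest of WSD+T. The 5 WSD+C libraries had 208, 203, 338, 26.9 and 318 CPM, Chow+T 1 to 4 had 315, 215, 175 and 263 CPM, and Chow+C 1 to 4 had 225, 160, 169 and 230 CPM. All groups overlapped, and WSD+C 4 was far below every other library. The means ran from 280 ± 77.3 CPM in WSD+T, through 242 ± 60.5 in Chow+T and 219 ± 124 in WSD+C, to 196 ± 36.6 in Chow+C. WSD+T did not differ from Chow+T past the threshold, nor WSD+C from Chow+C, and Chow+T and WSD+C were not tested against each other. WSD+T against Chow+C gave a log2 fold change of 0.51 (SE 0.43, CI -0.40 to 1.42, adjusted p = 0.781).

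NRIP1 (ENSMMUG00000023770) was the steadiest of the 8 over all 19 libraries. Without WSD+C 4, the SD of log2 CPM within groups was 0.25 for HIF1A, 0.34 for RUNX1 and 0.35 for NRIP1. For NRIP1, WSD+T had 48.1, 69.5 and 108 CPM as lowest, median and highest. WSD+C 1 to 5 had 74.4, 63.6, 65.4, 86.7 and 61.3 CPM, Chow+T 1 to 4 had 72.2, 81.6, 131 and 67.6 CPM, and Chow+C 1 to 4 had 51.7, 65.7, 74.1 and 83.2 CPM. Chow+T 3 was the highest of all libraries. Unlike the other genes, NRIP1 was not low in WSD+C 4, where it was 1.31 times the mean of the other 4 WSD+C libraries. The log2 fold change was 0.36 for Chow+T against Chow+C (SE 0.25, CI -0.17 to 0.89, adjusted p = 0.755), and 0.10 without Chow+T 3. For WSD+T it was 0.09 against Chow+C (CI -0.40 to 0.57) and -0.28 against Chow+T (CI -0.75 to 0.20).

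CITED4 (ENSMMUG00000043675) had the widest range. It was at 2.13, 15.5 and 42.6 CPM as the lowest, median and highest of WSD+T, which is a 19.96-fold span within a single group. WSD+C 1 to 5 had 18.97, 10.6, 29.0, 1.96 and 16.4 CPM, Chow+T 1 to 4 had 18.2, 8.44, 13.6 and 26.1 CPM, and Chow+C 1 to 4 had 9.74, 7.48, 8.47 and 13.6 CPM. Chow+C was the narrowest group, and each treated group had libraries above its highest value and others within or below its range. Against Chow+C the log2 fold change was 0.82 for WSD+T (SE 0.68, CI -0.61 to 2.24, adjusted p = 0.779), 0.65 for WSD+C (SE 0.69, adjusted p = 0.924) and 0.75 for Chow+T (SE 0.73, adjusted p = 0.838). Without WSD+T 2, the highest library, the value for WSD+T was 0.32. Among MI libraries the 3 of WSD+C (10.6 to 29.0 CPM) lay above the 3 of Chow+C (7.48 to 9.74 CPM) as well, with a log2 fold change of 1.17 (SE 0.38) and an adjusted p = 0.652.

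Of 18 genes linked to C/EBP factors and NRIP1 in granulosa cells, 16 were tested and 0 passed in any of the 11 comparisons of groups or classes. ADAMTS1, a protease of the matrix around the oocyte, averaged 488 ± 486 CPM in WSD+T and 133 ± 93.9 CPM in WSD+C (log2 fold change 1.87, SE 0.84, adjusted p = 0.999). SFRP4, a secreted inhibitor of Wnt signals, averaged 33.4 ± 70.6 CPM in WSD+C and 1.49 ± 2.00 CPM in Chow+C, with a log2 fold change of 4.47 (adjusted p = 0.83) that was 0.32 without WSD+C 4. BTC, betacellulin, a ligand of the epidermal growth factor receptor, averaged 12.7 ± 2.69 CPM with degenerating oocytes and 19.6 ± 5.02 CPM with MII oocytes (-0.62, SE 0.24, adjusted p = 0.962).

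HIF1A (ENSMMUG00000021002) differed little between the groups. WSD+T had 2060, 2555 and 3122 CPM as lowest, median and highest. WSD+C 1 to 5 had 2515, 2421, 2946, 471 and 2516 CPM, Chow+T 1 to 4 had 2816, 1637, 2363 and 2538 CPM, and Chow+C 1 to 4 had 3107, 2150, 2420 and 2095 CPM. Apart from WSD+C 4, every library of every group lay within 1637 to 3122 CPM. Log2 fold changes ran from -0.17 (WSD+C against Chow+C, CI -0.94 to 0.60) to 0.28 (WSD+T against WSD+C, CI -0.43 to 0.98), with adjusted p from 0.956 to 0.999. The first was 0.09 and the second 0.02 without WSD+C 4. Since the factor is controlled mainly through the stability of its protein, its transcript level is not a measure of its activity.

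Targets of HIF1 were therefore read as well, 27 tested rows for 26 of 27 listed symbols. For Chow+T against Chow+C, 1 was higher (2.32% of all genes were) and 2 were lower (4.87% of all genes were) at an unadjusted p under 0.05, and 0 passed the threshold. The glucose transporter SLC2A3 averaged 45.7 ± 22.3 CPM in Chow+T and 16.5 ± 8.91 CPM in Chow+C (log2 fold change 1.47, SE 0.44, adjusted p = 0.658). ANKRD37, an ankyrin-repeat gene, averaged 0.36 ± 0.28 CPM in Chow+T and 2.06 ± 2.14 CPM in Chow+C (-2.50, SE 0.90, adjusted p = 0.658), and the log2 fold change was -1.52 without Chow+C 2. The third, PFKFB4, a regulator of glycolysis, had a log2 fold change of -1.06 (adjusted p = 0.66).

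**Figure D2:**
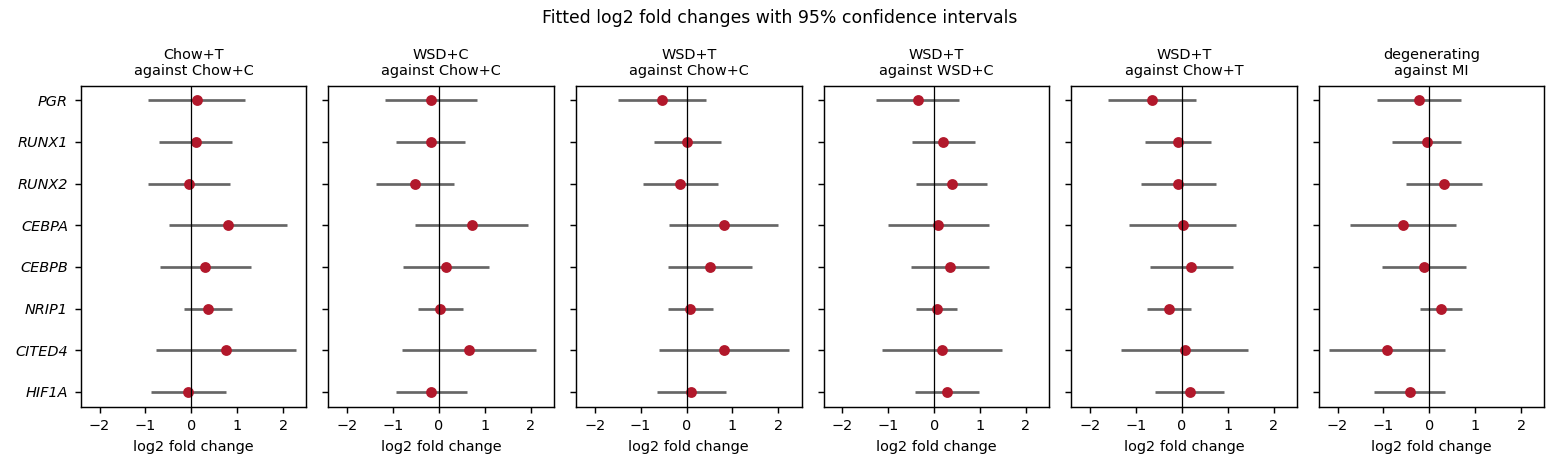
Fitted log2 fold change of each of the 8 genes (points) with its 95% confidence interval (bars) in 5 comparisons of treatment groups and in degenerating against MI oocytes, from edgeR. Every interval spans 0; the values for CEBPA and CITED4 against Chow+C are the highest and those for PGR in WSD+T are below 0.

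By oocyte class, 0 of the 8 genes passed in the fit of 18 libraries with treatment group as a term, and 0 passed at an unadjusted p under 0.05. Of all 14976 tested genes 0% passed in each of the 3 comparisons, and at an unadjusted p under 0.05 the shares were 14.3% for degenerating against MI, 3.38% for degenerating against MII and 3.91% for MII against MI. None of the 8 separated the libraries of 2 classes, where 0.0932%, 0.659% and 0.859% of all genes did so. The GV library has no replicate and was not tested.

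CITED4 was the lowest relative to MI of the 8 genes, but not past the threshold. It had 1.96, 12.9 and 21.7 CPM as lowest, median and highest with degenerating oocytes, 6.22, 8.44, 13.6 and 13.6 CPM in the 4 MII libraries, and 7.48, 14.8 and 42.6 CPM as lowest, median and highest with MI oocytes. In all classes the ranges overlapped widely. The log2 fold change was -0.93 for degenerating against MI (SE 0.59, CI -2.19 to 0.34, adjusted p = 0.474), and -0.82 for MII against MI (SE 0.74, adjusted p = 1). On leaving out a library, the MII value ran from -2.15 (without Chow+C 4) to -0.37 (without WSD+T 1). The degenerating value ran from -1.36 (without WSD+C 5) to -0.57 (without WSD+T 2). CEBPA had 4.65, 42.7 and 64.2 CPM with degenerating oocytes and 12.8, 51.4 and 72.0 CPM with MI oocytes as lowest, median and highest (-0.57, SE 0.54, adjusted p = 0.623), and -0.24 without WSD+C 4.

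PGR had a lower median with degenerating oocytes, at 6.30, 22.3 and 64.8 CPM as lowest, median and highest, against 16.7, 35.1 and 43.5 CPM with MI oocytes. The 4 MII libraries had 33.3, 63.5, 41.9 and 39.8 CPM. The degenerating class held both the lowest and the highest PGR library of all. Degenerating against MI gave a log2 fold change of -0.23 (SE 0.43, CI -1.15 to 0.69, adjusted p = 0.812), which was -1.04 without WSD+C 5 (adjusted p = 0.204) and 0.05 without WSD+T 2.

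NRIP1 was at 61.3, 78.4 and 108 CPM with degenerating oocytes, 57.1, 81.6, 131 and 83.2 CPM in the MII libraries, and 48.1, 65.6 and 76.3 CPM with MI oocytes. Its log2 fold change was 0.26 for degenerating against MI (SE 0.21, CI -0.19 to 0.71, adjusted p = 0.571) and 0.29 for MII against MI (SE 0.27, adjusted p = 1). RUNX2 was at 47.4, 130 and 232 CPM with degenerating and 47.3, 100 and 246 CPM with MI oocytes (0.31, SE 0.39). Both classes of RUNX2 thus spanned nearly the same range.

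HIF1A was at 471, 2484 and 2816 CPM with degenerating oocytes and 2150, 2487 and 3107 CPM with MI oocytes, with nearly equal medians. Its log2 fold change of -0.43 (SE 0.36, adjusted p = 0.578) was -0.10 without WSD+C 4. RUNX1 (-0.06, SE 0.35) and CEBPB (-0.13, SE 0.43) differed by less between these classes with WSD+C 4 in the fit. Without WSD+C 4 the values were 0.255 for RUNX1 and 0.231 for CEBPB. In the GV library PGR was at 21.3, RUNX1 at 457, RUNX2 at 88.5, CEBPA at 51.4, CEBPB at 263, NRIP1 at 67.6, CITED4 at 26.1 and HIF1A at 2538 CPM, each within the range of the MI libraries.

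**Figure D3:**
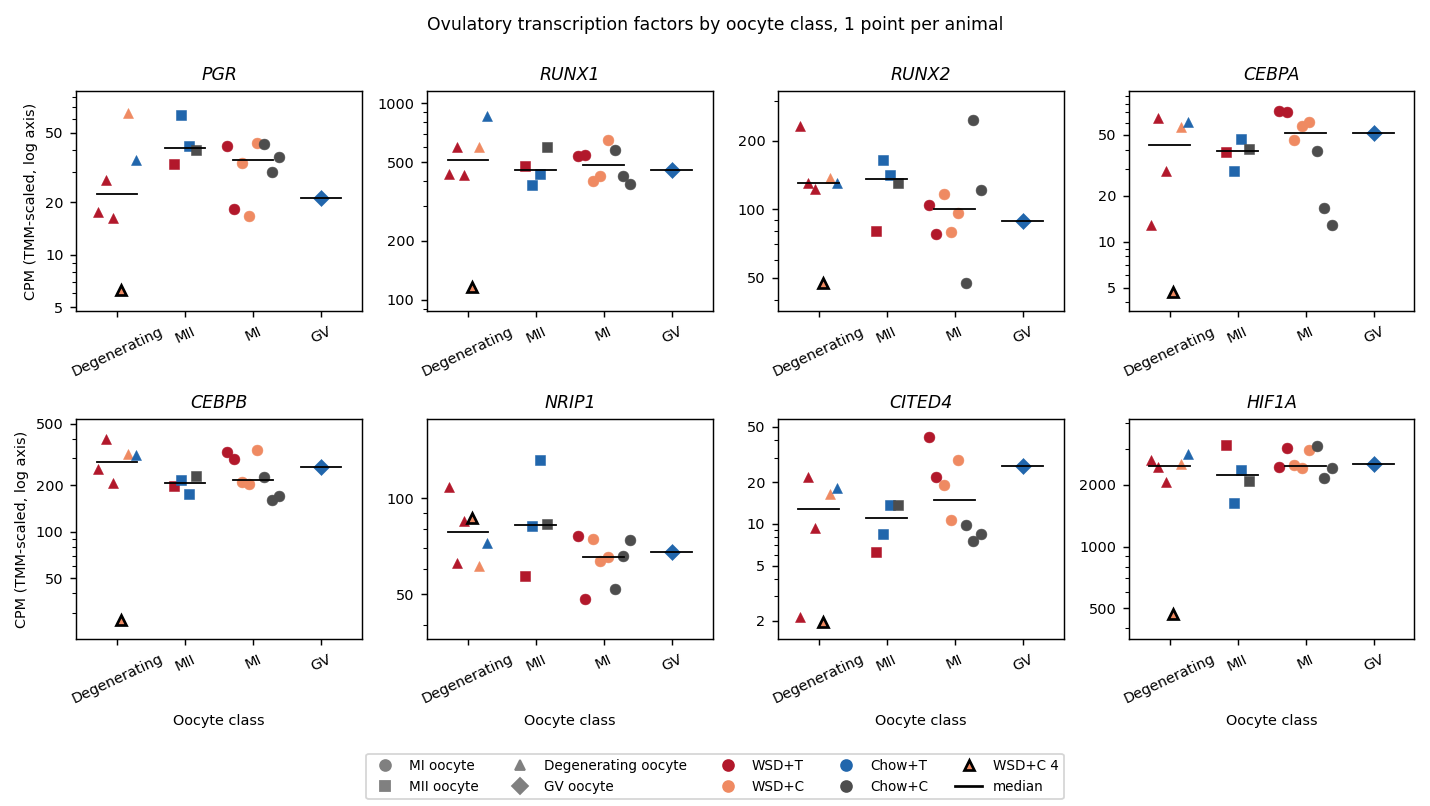
Level of the 8 genes in each library (TMM-scaled CPM, log axis) by the class of the oocyte; 1 point is 1 animal, colours give the treatment group, the line is the median and a black outline marks WSD+C 4. The classes overlap for every gene, and the GV point has no replicate.

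Most of the spread of these genes lay within the treatment groups. The SD of log2 CPM within groups was 1.23 for CITED4, 1.09 for CEBPA, 0.83 for CEBPB, 0.82 for PGR, 0.65 for RUNX2, 0.62 for HIF1A, 0.59 for RUNX1 and 0.35 for NRIP1, where the median of all tested genes was 0.55. Of all tested genes, 84.3% had a lower SD than CITED4, 79.5% than CEBPA, 68.5% than CEBPB and 67.7% than PGR. The share was 57.9% for RUNX2, 55.2% for HIF1A, 53.3% for RUNX1 and 27.1% for NRIP1. Beside genes of like mean level, CEBPA had a higher SD than 95.7% of 2153, CITED4 than 94.9% of 1620, PGR than 90.7% of 2129, CEBPB than 86.4% of 719 and RUNX2 than 81.5% of 1361. RUNX1, NRIP1 and HIF1A were nearer the middle, at 54.2%, 47.6% and 34.4%, the last among 32 genes of like level. Without WSD+C 4 the SD was 1.03 for CITED4, 0.74 for CEBPA, 0.62 for RUNX2, 0.60 for PGR, 0.37 for CEBPB, 0.35 for NRIP1, 0.34 for RUNX1 and 0.25 for HIF1A, beside a median of all genes of 0.49. The SDs of CEBPB, RUNX1 and HIF1A were thus over 1.5 times smaller without that library, and the share of like genes with a lower SD was then 53.5%, 32.5% and 3.45% (the last of 29 genes). For CITED4, CEBPA, RUNX2 and PGR that share was 93.4%, 92.1%, 87.1% and 84.9%. Treatment group accounted for 3.92% (CITED4) to 14.3% (PGR) of the variance in log2 CPM, beside a median of 13.3% over all genes.

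WSD+C 4 lay at the low end of that spread for all but NRIP1. Relative to the mean of the other 4 WSD+C libraries, its level was 0.08 times for CEBPA, 0.10 times for CEBPB and CITED4, 0.16 times for PGR, 0.18 times for HIF1A, 0.22 times for RUNX1 and 0.44 times for RUNX2. In the same library the granulosa markers summed to 2392 CPM, against 7335 to 17000 CPM in the others. The levels of these genes were next set against the granulosa score in a fit over all 19 libraries with treatment group as a term. A slope is the log2 change per unit of the score. Of all tested genes 27.5% passed the threshold, 13.2% with a positive slope. HIF1A (0.74, SE 0.15, adjusted p = 0.00364), CITED4 (1.28, SE 0.31, adjusted p = 0.00819), CEBPB (0.89, SE 0.23, adjusted p = 0.011), CEBPA (1.13, SE 0.31, adjusted p = 0.0143) and RUNX1 (0.62, SE 0.18, adjusted p = 0.0205) rose with the score, which is 5 of 8. PGR (0.45), RUNX2 (0.08) and NRIP1 (-0.08) had slopes that did not pass. Without WSD+C 4, 0 of all genes passed, and the slopes were 0.30 for HIF1A, 1.28 for CITED4, 0.21 for CEBPB, 0.59 for CEBPA and 0.13 for RUNX1 (adjusted p from 0.199 to 0.797). The slope of CITED4 kept its size without that library but not its side of the threshold, and the other 4 were smaller. Whether the makeup of the aspirate had a part in these levels was not tested further.

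**Figure D4:**
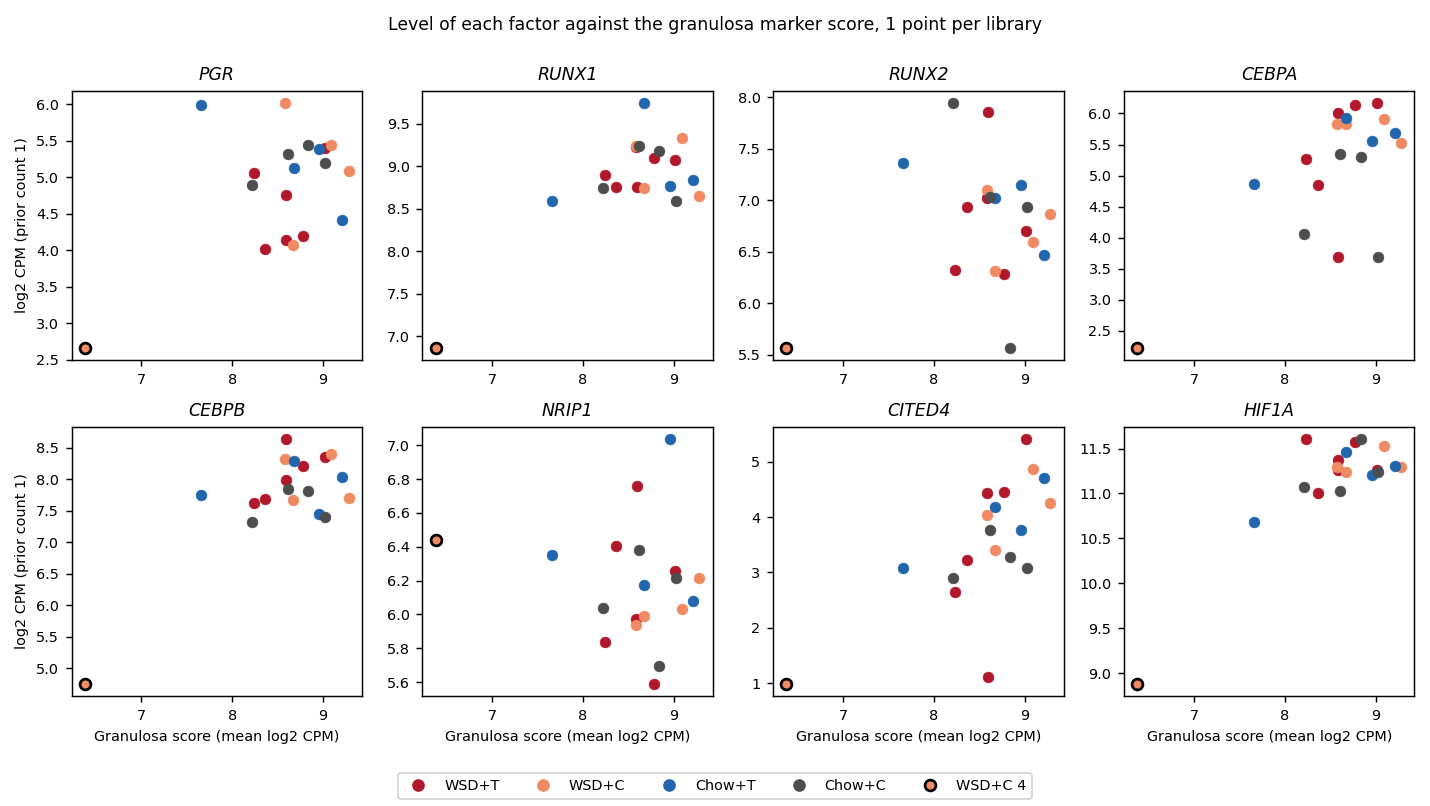
Log2 CPM of each of the 8 genes against the granulosa score of the same library (mean log2 CPM of the granulosa markers); 1 point is 1 library, colours give the treatment group and a black outline marks WSD+C 4. WSD+C 4, at a score of 6.38, lies away from the other libraries at 7.66 to 9.28 and low on the vertical axis for all but NRIP1.

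Against the leukocyte score, 18.2% of all genes passed the threshold, 6.72% with a negative slope, and HIF1A was the single one of the 8 that fell with it (-0.18, SE 0.06, adjusted p = 0.0415). Its slope was -0.06 without WSD+C 4 (adjusted p = 0.551). The next were CEBPA (-0.26, adjusted p = 0.0843) and CITED4 (-0.30, adjusted p = 0.0932).

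Of the genes linked to the factors, 9 of 16 linked to C/EBP factors and NRIP1 rose with the granulosa score and 0 fell, where 13.2% of all genes rose and 14.3% fell. They were CYP19A1, CYP11A1, INHA, STAR, LHCGR, SCARB1, TNFAIP6, EREG and HAS2, with slopes from 1.42 to 1.78. The first 4 of these, which serve steroid or inhibin production, are themselves markers in the score, so that their slopes are no separate evidence. Of the 12 genes linked to RUNX factors 4 rose (ANGPTL4, CYP11A1, TNFAIP6 and TIMP1), and of the 19 linked to PGR 1 rose and 2 fell. With the leukocyte score, 1 rose and 3 fell among those linked to C/EBP factors and NRIP1, 1 fell among those linked to RUNX factors and 3 rose among those linked to PGR. Without WSD+C 4, 0 genes of these 3 lists passed for either score.

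Across libraries several of the 8 genes varied together. Of 28 pairs, 10 had an adjusted p under 0.05 by Pearson's r of log2 CPM and 8 by Spearman's rho (100000 permutations each, two-sided, n = 19, adjusted over the 28 pairs). The share of other gene pairs that would pass was not measured, so these counts have no background beside them. In the 10 pairs by r, each gene ranked from 1 (CEBPB for RUNX1) to 1133 (PGR for RUNX1) among 11170 genes for its partner. CEBPA and CITED4 had the highest rho of the 28 pairs, at rho = 0.88, with r = 0.87. The permutation p was 1e-05 for each, the smallest that these permutations can give (adjusted p = 0.00028). Without the libraries farthest from the median of CEBPA, WSD+C 4 and Chow+C 3, r was 0.87, so that animals high in CEBPA were also those high in CITED4. RUNX1 and CEBPB had r = 0.93 (permutation p = 3e-05, adjusted p = 0.00042) and rho = 0.77 (permutation p = 0.00016, adjusted p = 0.00147), and r was 0.74 without WSD+C 4 and Chow+T 1. CEBPA and CEBPB had r = 0.82 (adjusted permutation p = 0.0007) and rho = 0.76, and r was 0.57 without WSD+C 4 and Chow+C 3.

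Pairs with HIF1A rested more on the farthest libraries. RUNX1 and HIF1A had r = 0.88 (adjusted permutation p = 0.00448) and rho = 0.59 (0.0302), and r was 0.46 without WSD+C 4 and Chow+T 1. CEBPB and HIF1A had r = 0.88 (adjusted permutation p = 0.016) and rho = 0.48 (0.128), and r was 0.38 without WSD+C 4 and WSD+T 4. PGR and RUNX1 had r = 0.65 (adjusted permutation p = 0.0278) and rho = 0.39 (0.201), and r was 0.17 without WSD+C 4 and WSD+T 6, so that this relation rested on those libraries. NRIP1 ran the other way, with rho = -0.65 against HIF1A (adjusted permutation p = 0.0161) and r = -0.35 (0.202). RUNX2 had no pair past the threshold. Its r with CEBPA was -0.03 over 19 libraries and -0.65 without Chow+C 1 and WSD+C 4.

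**Figure D5:**
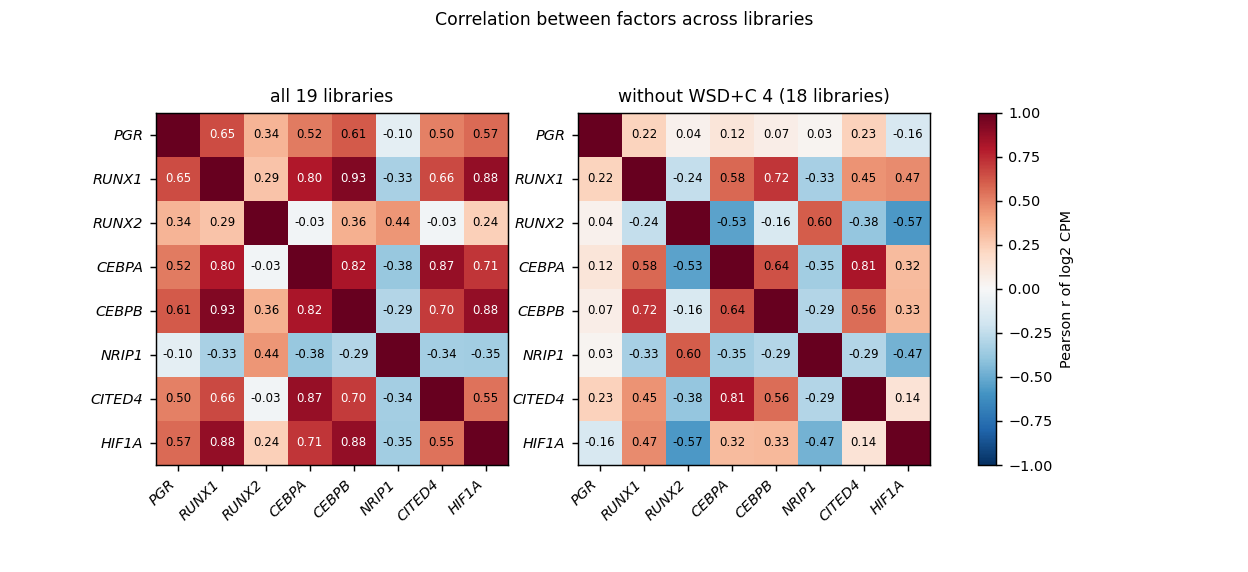
Pearson's r of log2 CPM for each pair of the 8 genes, over all 19 libraries and over 18 without WSD+C 4; colour gives r. The block of RUNX1, CEBPA, CEBPB and CITED4 is positive in both panels, while several pairs with PGR or HIF1A are closer to 0 without WSD+C 4.

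The genes whose levels were most like each factor, as the 3 highest r among 11170 genes over the 19 libraries, are given as a description. For CEBPA they were TPST1 (r = 0.95, and 0.92 without WSD+C 4), DLST and GPR108. CITED4 had PTPN9 (0.89, and 0.86 without WSD+C 4), METTL13 and GPR83. RUNX2 had PPP1R13B (0.89, and 0.86 without WSD+C 4), GREB1 and NNMT, and NRIP1 had CDKL2 (0.85, and 0.86 without WSD+C 4), SLK and TIMP2. For the other 4 factors the likeness was smaller without WSD+C 4. RUNX1 had CEBPB (0.93, and 0.72), ID2 and RPH3AL, CEBPB had CRAT (0.95, and 0.73), PXYLP1 and LTBR, HIF1A had EBP (0.96, and 0.86), LTBR and ALPL, and PGR had CBLN2 (0.86, and 0.76), USP11 and YPEL4.

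Genes of the wider network were compared between the oocyte classes as well. In degenerating against MI, 9.82% of all genes were higher and 4.45% lower at an unadjusted p under 0.05, and 0 genes of any list passed the adjusted threshold. Of 27 tested rows of HIF1 targets, 4 were higher and 6 lower at that unadjusted p. Those lower included glycolytic genes, PGK1 (246 ± 62.3 CPM with degenerating and 389 ± 121 CPM with MI oocytes, log2 fold change -0.92, SE 0.25, adjusted p = 0.164), LDHA (-0.79) and the glucose transporter SLC2A1 (-1.58), with the prolyl hydroxylases of collagen P4HA1 (-0.80) and P4HA2 (-0.81) and the mitophagy receptor BNIP3 (-0.87). Those higher were EGLN3 (1.75), which hydroxylates HIF subunits, the histone demethylase KDM3A (0.56), SLC2A3 (0.69) and the repressor BHLHE40 (2.08). EGLN3 was at 0.84 without WSD+C 4. The median log2 fold change of the list was -0.18, beside 0.02 over all genes. All 6 of the lower genes fell with the leukocyte score (slopes -0.16 to -0.28, adjusted p from 0.00333 to 0.0492), and EGLN3 (0.30, adjusted p = 0.0257) and BHLHE40 (0.44, adjusted p = 0.0435) rose with it. Of the whole list 2 rose and 8 fell with that score, where 11.4% and 6.72% of all genes did, and 0 passed without WSD+C 4. The part of leukocytes in the difference between the oocyte classes was not tested.

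Of 29 other transcription factors that respond to LH or cyclic AMP, 10 were higher and 0 lower at an unadjusted p under 0.05 in degenerating against MI, with a median log2 fold change of 0.48. Of all genes 9.82% were higher and 4.45% lower. The 10 were ETS1 (4.02), NR4A3 (2.47), BHLHE40 (2.08), EGR2 (1.58), ID1 (1.43), ATF3 (1.24), ETS2 (1.21), KLF4 (1.07), MYC (0.86) and MAFF (0.45). At that unadjusted p, 0 of the 29 differed in degenerating against MII (3.38% of all genes did). In MII against MI 0 of the 29 differed as well (3.91% of all genes did). NR4A3, an orphan nuclear receptor, averaged 7.27 ± 3.57 CPM with degenerating and 1.11 ± 0.77 CPM with MI oocytes (SE 0.65, adjusted p = 0.164). Its ranges of 2.78 to 13.0 and 0.37 to 2.42 CPM did not overlap, as for 0.0932% of all genes. Its adjusted p was 0.0461 without Chow+T 1 and above the threshold on leaving out any other library (0.1 to 0.753). MAFF averaged 118 ± 43.6 CPM with degenerating, 121 ± 52.9 CPM with MII and 66.6 ± 7.88 CPM with MI oocytes. With MII oocytes NR4A3 averaged 12.3 ± 11.8 CPM (1.77 to 24.4), above its mean with degenerating oocytes. It rose with the leukocyte score (slope 0.48, adjusted p = 0.0288). Of this list, 7 of 29 rose past the threshold with that score, where 11.4% of all genes did. Without WSD+C 4, 1 of 28 rose, and 684 of 14767 genes passed in either direction. The count of factors higher in degenerating against MI was 6 without WSD+C 4, 6 without WSD+C 2 and 6 without WSD+T 3. Genes at an unadjusted p under 0.05 in either direction were 951 of 14743, 1600 of 14961 and 1832 of 14863 in those fits. They were 2136 of 14976 with no library left out. The count of factors was 2 once the leukocyte score entered the fit, where 0.968% of all genes were higher. The leukocyte markers summed to 18.95 to 2348 CPM with degenerating and 25.9 to 75.8 CPM with MI oocytes, and their part in this count was not tested beyond that fit. For Chow+T against Chow+C, 6 of these 29 were higher (KLF4, FOSL1, ETS2, NR4A3, NFIL3 and MAFF) and 0 lower, where 2.32% of all genes were higher, and the count was 2 without Chow+T 3 and 3 without Chow+C 3. Genes at an unadjusted p under 0.05 in either direction were 495 of 15388 and 923 of 15363 in those fits. With no library left out they were 1079 of 15019. MAFF averaged 130 ± 56.2 CPM in Chow+T and 62.2 ± 4.41 CPM in Chow+C (1.07, SE 0.31, adjusted p = 0.658).

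Among 29 tested partners and relatives of the 8 factors, 2 were higher and 1 lower in degenerating against MI at an unadjusted p under 0.05. They were the runt-domain relative RUNX3 (3.50), EGLN3 and EGLN1 (-0.59), where 9.82% of all genes were higher and 4.45% lower. NCOA2, a coactivator of steroid receptors, averaged 31.1 ± 5.45 CPM in WSD+T, against 47.5 ± 11.96 CPM in Chow+T (log2 fold change -0.61, SE 0.17, adjusted p = 0.862). RUNX1T1, a corepressor, averaged 0.21 ± 0.15 CPM in WSD+T and 0.87 ± 0.58 CPM in WSD+C (-2.07, SE 0.65, adjusted p = 0.999). Among 19 tested genes linked to PGR, 2 were higher in degenerating against MI at an unadjusted p under 0.05, where 9.82% of all genes were. They were CXCR4 (1.67) and the protease ADAM8 (1.79). ADAM8 had an adjusted p = 0.164, and its log2 fold change was 1.05 without WSD+C 4. RUNX3 (slope 0.75, adjusted p = 0.000558), ADAM8 (0.35, adjusted p = 0.00109) and CXCR4 (0.29, adjusted p = 0.032) rose with the leukocyte score, and CYP19A1 fell with it (-0.46, adjusted p = 0.00707). Without WSD+C 4, 0 of the partners and relatives passed for that score, and 0 of the genes linked to PGR or to C/EBP factors and NRIP1. The aromatase gene CYP19A1 (-1.54, adjusted p = 0.328) was the single one of 16 tested genes linked to C/EBP factors and NRIP1 below that unadjusted p. Of all genes 14.3% were below it in degenerating against MI.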

How the data were processed

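Sequencing libraries of 19 animals, 1 per animal, were analysed from a deposited table of raw read counts per gene. Per the submitters' processing notes, Trimmomatic and STAR were used, and the genome build is not given in the sources used here, so no coordinates are printed. Per the labels' protocols the library kit did not keep strand. The counts deposited by the authors were used as they stand, 28832132 to 56385679 per library in genes; 4 other classes of read, which name no gene and held 30.9% to 50.9% of the reads, were left out.

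Genes were filtered with filterByExpr (minimum count 10, minimum total 15), scaled by TMM and tested with edgeR 4.0.16 (robust quasi-likelihood, R 4.3.3), with Benjamini-Hochberg adjustment over all tested genes and a threshold of 0.05. The treatment fit held all 4 groups, and the oocyte fit had treatment group as a term. CPM are TMM-scaled, and log2 CPM uses a prior count of 1. Levels are not compared between genes, since CPM does not account for length. DESeq2 1.42.0, limma 3.58.1, other scaling, no filter, covariates and leaving out each library were tried. The edgeR p-values judge a difference or slope against the spread between animals, and those of the pairs come from permuting libraries.

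Named genes were all 8 factors and, from each list, any past the threshold, the 2 of smallest p over the 5 pairs of groups and the 1 of smallest p over the oocyte comparisons. Further list genes named from counts of 10 or fewer were chosen after their values were seen. The factors and lists were chosen with earlier results of these data known.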

Additional observations from a re-analysis of the deposited data

Results flagged for a closer look

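Single libraries stood far from the rest of their group for 4 of the 8 factors, by the gap to the nearest library relative to the range of the group. Chance gives such a gap in about 1 in 20 groups, and several treatment groups and oocyte classes were looked at for each gene. Some such gaps would therefore arise by chance, and their share over all genes was not counted. WSD+C 4, which also stood apart in its cell markers, gave the gaps of CEBPA and HIF1A. RUNX1 was at 857 CPM in Chow+T 1, where the next of the 4 Chow+T libraries was at 457 CPM. RUNX2 was at 232 CPM in WSD+T 3, where the next of the 6 WSD+T libraries was at 130 CPM, and at 246 CPM in Chow+C 2, where the next of the 8 MI libraries was at 122 CPM. CEBPA was at 4.65 CPM in WSD+C 4, where the next lowest of the 5 WSD+C libraries was at 45.9 CPM. HIF1A was at 471 CPM in WSD+C 4, where the next lowest was at 2421 CPM among the 5 WSD+C libraries and at 2060 CPM among the 6 libraries with degenerating oocytes.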

How the results depend on the processing

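No paired analysis was possible because the replicate numbers were given in accession order and pair no animals. Over 11 comparisons, 2368 alternative values for the 8 factors gave none past the threshold (smallest adjusted p = 0.204), and 174 changed sign, 108 of them among 1648 values that left out a library. Counts over all genes depended more on the tool. DESeq2 called 6 genes for Chow+T against Chow+C, 2 for WSD+T against Chow+C, 2 for WSD+T against Chow+T, 4 for testosterone, 5 for the diet, 3 for the interaction, 1001 for degenerating against MI, 14 for degenerating against MII, 7 for MII against MI and 4427 for the leukocyte slope. Degenerating against MI gave 574 with no treatment group term and 0 to 226 on leaving out a library (226 without Chow+T 1). Degenerating against MII gave 6 with the leukocyte score as a covariate and 0 to 1 on leaving out a library, and the diet 0 to 1. The leukocyte slope had 684 (without WSD+C 4) to 3903 calls and the granulosa slope 0 (without WSD+C 4) to 4323; without both WSD+C 4 and WSD+T 6 they had 256 and 0. The cause was not tested. The alternatives for the list genes, and the spread and correlations without WSD+C 4, were chosen after seeing the data. The lowest count of a factor, 83 reads for CITED4 in WSD+C 4, leaves depth a small part of these errors.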

Other observations

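Of 13 tested transcription factors of the granulosa lineage, 0 passed edgeR's quasi-likelihood test in any of the 11 comparisons of groups or classes. GATA6 and EMX2 fell with the leukocyte score, with slopes of -0.22 and -0.29, and 0 of the 13 passed for that score without WSD+C 4. In degenerating against MI, 1 of the 13 had an unadjusted p under 0.05, where 14.3% of all genes did. That gene, ESR2, the beta estrogen receptor, averaged 14.4 ± 18.3 CPM with degenerating and 6.17 ± 6.55 CPM with MI oocytes (log2 fold change 2.16, adjusted p = 0.338), and the value was 1.10 without WSD+C 4. LHX9, a homeobox factor of the early gonad, averaged 0.75 ± 0.23 CPM in WSD+T and 1.87 ± 0.96 CPM in WSD+C (-1.31, adjusted p = 0.999). NR2F2, an orphan nuclear receptor, averaged 30.1 ± 9.25 CPM in WSD+T and 49.6 ± 27.3 CPM in WSD+C (-0.72, adjusted p = 0.999), and the value was -0.32 without WSD+C 2.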
